A study of Mus musculus with 15 samples.

Results

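Protein-coding genes that start at several separate promoters were followed through the H3K4me3 peak lists of 3 kinds of mBA cells. A gene was included when it lay on chromosomes 1 to 19 of GRCm39, had at least 2 annotated transcript starts over 5000 bp apart, and had separate peaks in 1 of the 3 lists overlapping the windows of 500 bp either side of 2 such starts. This held for 622 of 20621 coding genes, and for 622 of the 9671 coding genes with starts over 5000 bp apart (6.43%, 95% Wilson interval 5.96 to 6.94%). The genes were selected on the presence of these peaks, so the marks at their promoters are described below and not tested. ChIP–seq for H3K4me3 was carried out on 12 samples, 4 each of untreated wild-type cells (WT), wild-type cells given 2-hydroxyglutarate, in a form that enters cells and dissolved in DMSO (WT + 2HG) and untreated cells lacking CLPP, a protease of the mitochondrial matrix (CLPP-KO), with 1 input sample per condition. All were mBA cells from mouse brown adipose tissue, called primary in the sample labels and immortalized with SV40 large T antigen in the study's methods, which describe the ChIP–seq as one of mature brown adipocytes made from these preadipocytes, and all were grown in high-glucose DMEM free of pyruvate. The CLPP-KO cells were additionally given uridine, so the knockout and the supplement cannot be told apart. The study's reporting summary says that the cells came from pooled control and knockout mice. It defines a biological replicate as an independent culture. How many lines each genotype had is not stated, so genotype and cell line cannot be told apart either. Peak calling by the authors combined the 4 replicates, so each condition has 1 list and no spread between replicates. What the untreated cells received in place of DMSO is not given in the sources used here.

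Trimethylation of histone H3 at lysine 4 is laid down around the start sites of active and poised genes, most densely over promoters rich in CpG. Many mammalian genes have alternative promoters, which give transcripts with different first exons and can change the start codon, the tissue in which the gene is transcribed or the regulatory sequence of the messenger RNA. Because the mark sits next to each start, a peak list can show which of the promoters of a gene carry it, whereas it cannot show how much transcript each one makes.

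The sequences just before 8 of these starts are printed because they show pairs of promoters of the same gene, or the promoter of a gene that lacked a peak in WT. Each is the stretch of 150 bases upstream of the start nearest to the peak summit, from GRCm39, 5′ to 3′ on the strand of the gene, with no annotated exon in it and with every CpG in capitals. The first of each pair had a peak in all 3 lists. The lists named beside a sequence are those that marked any start of its promoter. At Nrg1 the CLPP-KO peak covers the printed stretch and the WT + 2HG peak does not reach it.
Zfp423 first promoter, chr8:88687290-88687439, minus strand: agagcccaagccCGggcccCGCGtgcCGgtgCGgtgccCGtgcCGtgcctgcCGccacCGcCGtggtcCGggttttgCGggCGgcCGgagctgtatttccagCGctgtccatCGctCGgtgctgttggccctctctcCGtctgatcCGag
Zfp423 second promoter, chr8:88670681-88670830, minus strand, WT + 2HG alone: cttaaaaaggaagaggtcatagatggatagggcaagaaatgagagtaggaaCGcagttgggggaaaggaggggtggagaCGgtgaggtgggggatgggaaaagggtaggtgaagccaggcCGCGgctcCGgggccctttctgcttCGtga
Trio first promoter, chr15:28025041-28025190, minus strand: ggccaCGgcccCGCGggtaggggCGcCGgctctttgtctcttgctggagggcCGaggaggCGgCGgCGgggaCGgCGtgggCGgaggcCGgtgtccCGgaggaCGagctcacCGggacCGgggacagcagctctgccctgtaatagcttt
Trio second promoter, chr15:27788725-27788874, minus strand, CLPP-KO alone: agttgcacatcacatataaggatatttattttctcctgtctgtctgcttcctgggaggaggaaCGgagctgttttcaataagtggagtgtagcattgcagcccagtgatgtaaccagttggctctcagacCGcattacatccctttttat
Tbx15 first promoter, chr3:99147547-99147696, plus strand, WT + 2HG and CLPP-KO: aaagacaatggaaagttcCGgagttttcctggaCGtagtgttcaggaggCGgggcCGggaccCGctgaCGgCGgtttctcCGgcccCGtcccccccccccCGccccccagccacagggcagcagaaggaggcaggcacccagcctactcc
Nrg1 first promoter, chr8:33374826-33374975, minus strand, WT + 2HG and CLPP-KO: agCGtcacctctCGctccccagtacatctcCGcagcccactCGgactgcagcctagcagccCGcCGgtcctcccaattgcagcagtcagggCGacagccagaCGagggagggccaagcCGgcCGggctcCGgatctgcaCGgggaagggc
Tcf7l2 second promoter, chr19:55883792-55883941, plus strand, CLPP-KO alone: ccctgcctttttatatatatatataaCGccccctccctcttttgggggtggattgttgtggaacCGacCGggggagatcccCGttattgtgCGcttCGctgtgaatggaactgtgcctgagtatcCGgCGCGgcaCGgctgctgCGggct
Mlxipl first promoter, chr5:135118594-135118743, plus strand, CLPP-KO alone: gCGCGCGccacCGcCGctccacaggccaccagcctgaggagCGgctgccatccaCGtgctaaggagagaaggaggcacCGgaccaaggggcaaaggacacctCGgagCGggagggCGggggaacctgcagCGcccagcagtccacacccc
The Zfp423 stretch with a peak in all 3 lists holds 19 CpG and its partner 6, and the Trio stretches hold 17 and 2. Both pairs have a wide contrast, and not every pair does. In the same order, stretches of this length held 2 and 2 CpG in Hoxc6, 11 and 8 in Arhgap23 and 15 and 7 in Septin9.

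The WT list held 12342 peaks, the WT + 2HG list 14059 and the CLPP-KO list 15118. Each peak carries an area under the curve, which is not scaled between lists. Sizes are therefore given as percentiles, the percentage of the peaks of the same list whose area is no larger. A percentile depends on the other peaks of its list, and the lists differ in length. A higher percentile in 1 list than in another therefore does not by itself mean more of the mark. Below, 3 percentiles in a row are those of WT, WT + 2HG and CLPP-KO, and 2 in a row without a WT peak are those of WT + 2HG and CLPP-KO. At least 1 start of Clpp itself was marked in all 3 lists, which says nothing of the deletion, since a marked start does not require an intact gene. Of 15 brown adipocyte markers, 4 had a marked start in WT and 6 in each treated list. Pparg, Cebpa and Prdm16 were among those marked in every list, and the starts of Ucp1, Fabp4, Adipoq and Ppargc1a had no peak in any. Of 8 preadipocyte and fibroblast markers, 5, 5 and 6 were marked in WT, WT + 2HG and CLPP-KO, and of 7 immune markers none. The 7 skeletal muscle markers had 2, 2 and 3 marked, the 6 endothelial markers 1, 1 and 2, and the 5 neural and Schwann cell markers 2, 3 and 4. What part cell type or differentiation plays in the differences described next was not tested.

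More of the genes met the rule in the treated lists than in WT. Separate promoters were marked in 404 genes in WT, in 539 in WT + 2HG and in 563 in CLPP-KO, and 384 genes met the rule in all 3 (61.7%, 95% Wilson interval 57.9 to 65.5%). A further 106 met it in WT + 2HG and CLPP-KO without WT, 68 in CLPP-KO alone, 44 in WT + 2HG alone and 10 in WT alone. These intervals cover counting error only. The genes at the limit of the distance were Cdk4, whose separately marked starts were at most 4987 bp apart and which was left out, and Mier1, at 5020 bp, which was kept.

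Starts with a peak were joined into 1 promoter where the next such start lay within 5000 bp. This gave 1226 promoters in 591 genes, while 31 genes had all of their marked starts in 1 such chain and are described last. There were 2 promoters in 554 genes, 3 in 30 and 4 in 7. Adjacent promoters of a gene were a median of 26064 bp apart, with quartiles of 12326.5 and 67156 bp. The widest gap, of 2857104 bp, belonged to Fgfr2, a fibroblast growth factor receptor, whose 5′-most annotated start lies in the window of another coding gene. The genes were annotated with a median of 13 distinct starts (quartiles 8 and 19), against 9 for the other coding genes with a marked start (5 and 14). Their median length was 64987.5 bp against 26932 bp, and long genes with many annotated starts have more chances to meet the rule.

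Most promoters were marked throughout, and most of the rest lacked a peak in WT. Of the 1226 promoters, 944 had a peak in all 3 lists (77.0%, 95% Wilson interval 74.6 to 79.3%), where all 12980 coding promoters gave 84.6%. Peaks in WT + 2HG and CLPP-KO without WT were found at 142 promoters, in CLPP-KO alone at 73 and in WT + 2HG alone at 43. These are 11.6, 5.95 and 3.51% of the member promoters, and over all coding promoters the same patterns made up 8.03, 4.39 and 1.70%. The patterns that include WT were rare, with WT alone at 10 promoters, WT and CLPP-KO at 8 and WT and WT + 2HG at 6. At the level of genes, 354 of 591 had every promoter marked in every list (59.9%, 55.9 to 63.8%), and 237 had at least 1 promoter that differed between lists. Of these 237 genes, 203 also had a promoter marked in all 3 lists, so that the gene was marked throughout while the set of its promoters was not. Only 31 of the 237 had no marked promoter in WT.

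**Figure D1:**
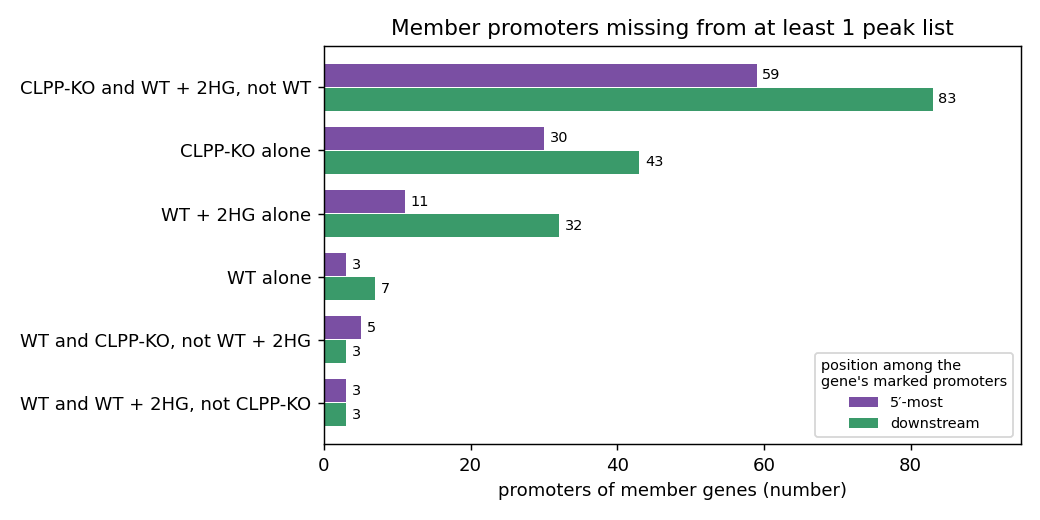
Number of promoters of the member genes (horizontal axis) in each pattern of lists (rows) for promoters missing from at least 1 list, split into the 5′-most marked promoter of the gene and promoters downstream of it. The longest bar is the 83 downstream promoters marked in WT + 2HG and CLPP-KO without WT, and the patterns that include WT hold at most 7 promoters a bar.

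Compared with WT, 185 promoters were marked in WT + 2HG and not in WT, of the 1153 marked in either (16.0%, 95% Wilson interval 14.0 to 18.3%). Over all coding promoters that share was 10.2%. In the other direction 18 were marked in WT and not in WT + 2HG (1.56%), where all coding promoters gave 0.967%. In CLPP-KO, 215 promoters of 1183 were marked without a WT peak (18.2%, 16.1 to 20.5%, all coding promoters 12.6%), and 16 were marked in WT and not in CLPP-KO (1.35%, all coding promoters 0.721%). Between the treated lists, 81 of 1216 promoters were marked in CLPP-KO and not in WT + 2HG (6.66%, all coding promoters 4.94%), and 49 the other way (4.03%, all coding promoters 2.03%). Nothing is read from these shares against the background, since peaks at more than 1 promoter chose the genes. Counted by gene, 169 genes had more marked promoters in WT + 2HG than in WT and 16 had fewer. For CLPP-KO these numbers were 177 and 15. A gene could enter through WT or through either treated list, and these gene counts have no matching share over all coding genes. The same holds for the numbers of genes meeting the rule in each list. Nothing is read from them beyond the members.

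The lists differ in length, and this enters all of these counts. With the treated lists cut down to the 12342 peaks of largest area, the length of the WT list, 103 promoters of WT + 2HG and 99 of CLPP-KO lacked a WT peak, and those marked in WT and missing from the treated list numbered 33 and 46. The excess of treated over WT was smaller in both comparisons and in the same direction. Of the 215 CLPP-KO promoters without a WT peak, 142 were also marked in WT + 2HG (66.0%, 95% Wilson interval 59.5 to 72.0%), and the equal-sized lists gave 70.7%. Over all coding promoters the share was 64.6% (1042 of 1612), inside the interval of the members. The WT list is common to both comparisons, and part of this sharing follows from it.

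Promoters that lacked a WT peak lay mostly downstream. Of the 258 such promoters, 158 were downstream of the 5′-most marked promoter of their gene (61.2%, 95% Wilson interval 55.2 to 67.0%), against 464 of the 944 marked in all 3 lists (49.2%, 46.0 to 52.3%). The share was 58.5% for those in both treated lists, 58.9% for CLPP-KO alone and 74.4% for WT + 2HG alone (32 of 43, 59.8 to 85.1%). In 167 genes with 2 promoters, 1 was marked in all lists and the other lacked a WT peak, and there the latter was downstream in 105 (62.9%, 55.3 to 69.8%). Of all member promoters, 51.8% were downstream (635 of 1226). With the equal-sized lists the downstream share of promoters without a WT peak was 56.1%. It was 55.9% with starts of coding transcripts only, 55.5% at an area of at least 1000 and 55.3% at a summit p of at most 1e-05. The other alternatives gave 58.1 to 63.6%. The margin over all member promoters was thus smaller without noncoding starts or without the weakest peaks.

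Most downstream promoters fell within the canonical transcript, and many held its start. Relative to the Ensembl canonical transcript, the representative start, taken as the one nearest to the summit of the largest peak, lay in an intron for 315 of 635 downstream promoters and in an exon for 289, which includes its first exon. Of promoters without a WT peak, 26.7% held the canonical start (69 of 258, 95% Wilson interval 21.7 to 32.5%), against 50.0% of those marked in all lists (472 of 944, 46.8 to 53.2%). The share was 29.2% for promoters with a WT peak and missing from a treated list (7 of 24, 14.9 to 49.2%). A coding transcript began at 92.9% of the promoters marked in all lists and at 79.1% of those without a WT peak (73.7 to 83.6%). It began at 72.2% of the downstream promoters without a WT peak (114 of 158, 64.7 to 78.6%), and the others start only transcripts annotated as noncoding. Of the 591 genes, 228 had 2 promoters whose coding transcripts share a start codon and 256 had none that do, and in 107 fewer than 2 promoters gave a coding transcript. The 5′-most promoters often lay beside another gene, with 37.3% of those marked in all lists overlapping the window of a start of another coding gene, against 9.27% of the downstream ones. A peak at such a start cannot be given to 1 of the 2 genes.

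The peaks without a counterpart in WT were small within their lists. In WT + 2HG, 183 of the 185 had an area under the median of that list, and in CLPP-KO 202 of the 215 (94.0%, 95% Wilson interval 89.9 to 96.4%). Their median percentile was 15.1 in WT + 2HG and 19.5 in CLPP-KO, where the promoters marked in all lists had medians of 63.1 and 64.8. They were also narrower, with median widths of 505 bp (WT + 2HG) and 575 bp (CLPP-KO) against 1100 and 1103.5 bp. The 24 promoters with a WT peak and missing from a treated list were small too, at a median percentile of 8.96 and a width of 382 bp in WT. Among promoters marked in all lists, the 5′-most had larger peaks than the downstream ones, at median percentiles of 57.4 and 48.3 in WT, 66.6 and 58.6 in WT + 2HG and 68.3 and 60.8 in CLPP-KO.

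**Figure D2:**
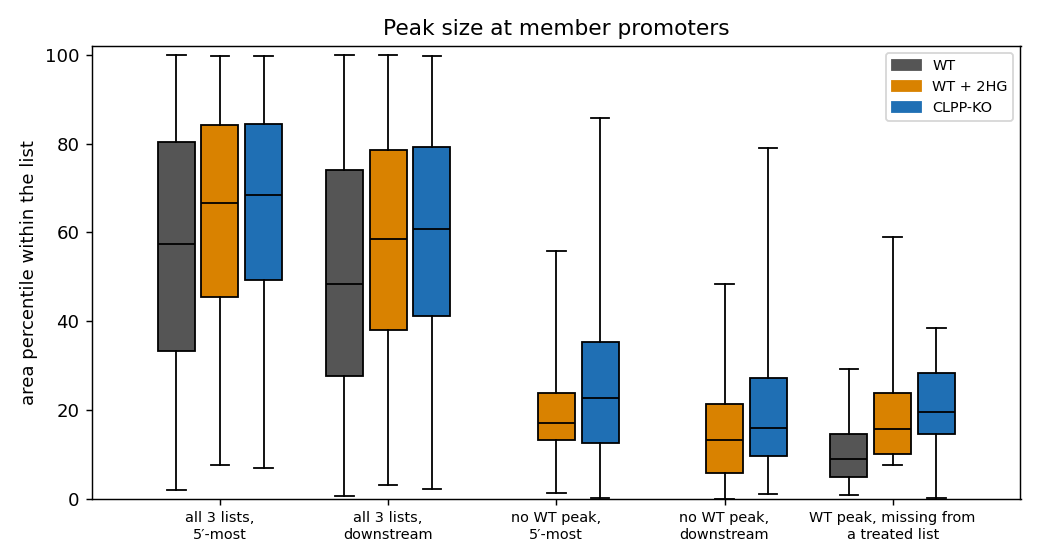
Area percentile within the list (vertical axis) of the largest peak at each member promoter, by class of promoter and by list, with boxes from the lower to the upper quartile, a line at the median and whiskers to the lowest and highest value. Promoters without a WT peak sit at median percentiles between 13.1 and 22.6, and promoters marked in all lists between 48.3 and 68.3.

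Most promoters without a WT peak were far from any peak of the WT list. The nearest WT peak was a median of 29520 bp away (quartiles 12265.2 and 73671.2 bp). For 10 of the 258, however, the treated peak overlapped a WT peak that did not reach the window, and these 10 include 5 of the 12 genes with the largest such peaks. They are Arhgap23, Cracd, Dmpk, Dnm1, Hoxc6, Mtres1, P4htm, Pnpla8, Podxl2 and Trmt61a. At these genes the difference is one of the extent of a peak rather than its presence, and those described below are named as such.

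The promoters marked in both treated lists and not in WT included those of a growth factor and a cholesterol carrier. Nrg1 encodes neuregulin, a ligand of ErbB receptors. Its 5′-most promoter, on chromosome 8 at 33374825, was covered in CLPP-KO by a peak at percentile 72.3 that reached from 33373380 to 33375132. In WT + 2HG a smaller peak, at percentile 17.5, spanned 33373464 to 33374285. It missed the window of the start at 33374825 and marked another start joined into the same promoter. The second promoter of Nrg1, 875615 bp downstream, was marked in all lists at percentiles of 93.5, 96.8 and 93.2. The gene was therefore strongly marked throughout at the downstream promoter, and the far upstream promoter was the one that differed. Gramd1b encodes a protein that moves cholesterol from the plasma membrane to the endoplasmic reticulum. The promoter of its canonical transcript, on chromosome 9 at 40366966, had peaks at percentiles 41.0 and 79.0 in the treated lists, and its upstream promoter, 75713 bp away, a peak in CLPP-KO alone at 12.0. No start of Gramd1b had a peak in WT, and the nearest WT peak was 229533 bp from the peaks of the canonical promoter.

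The remaining genes with the largest peaks of this pattern carry limits. The 5′-most promoter of Mtres1, a mitochondrial factor that protects transcription under stress, was at percentile 52.0 in WT + 2HG and 85.8 in CLPP-KO. That of Trmt61a, a subunit of a tRNA methyltransferase, was at 55.9 and 67.2. Both overlap the window of another coding gene's start and both peaks overlap a WT peak outside the window, so neither is a promoter without mark in WT in the plain sense.

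In CLPP-KO alone the largest peak was that of P4htm, a transmembrane prolyl hydroxylase that uses 2-oxoglutarate, at percentile 62.3. It lay in intron 8, started a noncoding transcript beside another coding gene and overlapped a WT peak outside the window, while the first promoter was at 32.8, 45.6 and 49.001 in the 3 lists. Dync1i1, an intermediate chain of cytoplasmic dynein, had no peak in WT at all. Its first promoter was at percentile 34.8 in CLPP-KO alone, and a noncoding start in intron 14 was at 13.6 in WT + 2HG and 19.8 in CLPP-KO. Sema6d, a transmembrane semaphorin, had its upstream promoter at 31.1 in CLPP-KO alone, and its canonical promoter, 520212 bp downstream, at 43.6, 67.6 and 84.6 in WT, WT + 2HG and CLPP-KO. Nbea, a protein of membrane traffic, had a noncoding start in intron 40 at 29.5 in CLPP-KO alone, and its first promoter was at 96.7, 95.8 and 96.2. The promoters found in CLPP-KO alone were thus secondary to a larger one in Sema6d and Nbea.

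In WT + 2HG alone the 4 largest peaks were those of Podxl2, Cracd, Ccdc57 and Ppfia3. Podxl2 encodes a sialomucin, and a noncoding start in its intron 6 was at percentile 48.3. Cracd, a regulator of actin capping, was at 43.8 at a noncoding start in exon 9. Both of these peaks overlap a WT peak outside the window. The upstream promoter of Ccdc57 was at 35.3, beside another coding gene, and a noncoding start in intron 27 of Ppfia3, a synaptic scaffold protein, was at 28.5. In each of the 4 genes the other promoter was marked in all lists, at 38.8, 50.7, 3.37 and 56.9 in WT for Podxl2, Cracd, Ccdc57 and Ppfia3, respectively.

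A peak in WT that was missing from a treated list was found for few promoters. Agap3, which activates the GTPase of Arf proteins, had a downstream promoter in intron 1 at percentile 29.2 in WT and 58.9 in WT + 2HG without a CLPP-KO peak, while its first promoter was at 81.7, 93.0 and 94.9. Camta1, a calmodulin-binding transcription activator, had its second of 3 promoters at 14.6 in WT and 38.5 in CLPP-KO without WT + 2HG. Mast1, a microtubule-associated kinase, had its first promoter at 20.6 in WT and 35.1 in CLPP-KO, and a noncoding start in exon 7 at 13.3 in WT + 2HG and 14.5 in CLPP-KO. In Mast1 the 2 promoters therefore had opposite patterns in WT + 2HG. Sgk1, a kinase induced by serum and glucocorticoids, had its 5′-most promoter at 12.1 in WT and 26.03 in CLPP-KO without WT + 2HG, and its main promoter, 112045 bp downstream, at 68.2, 60.9 and 80.1.

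**Figure D3:**
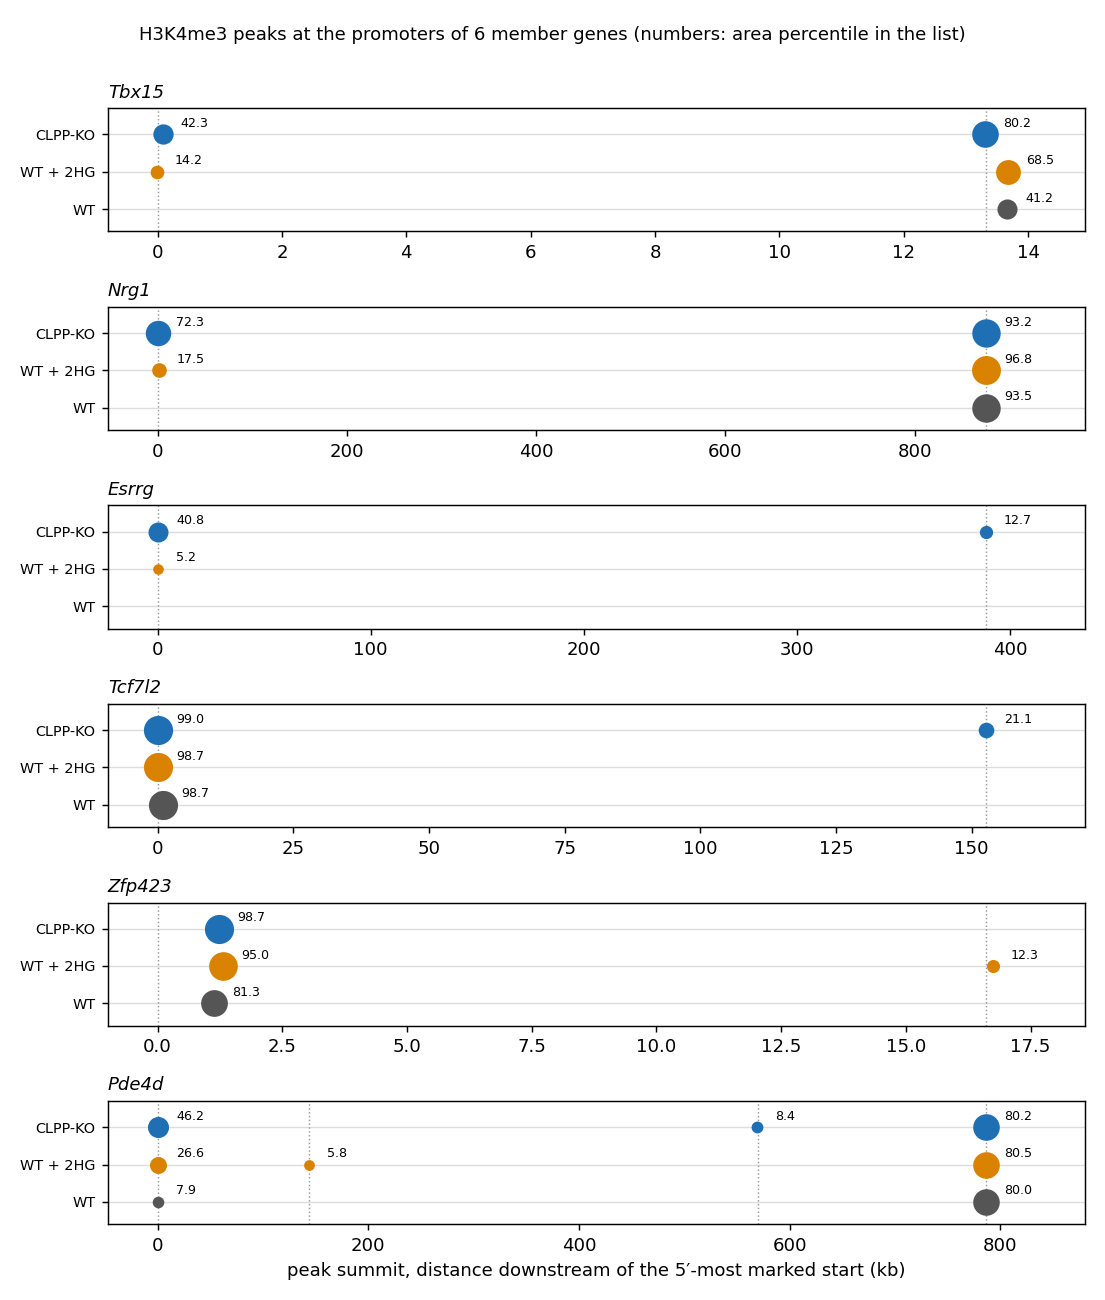
Largest H3K4me3 peak at each promoter of 6 genes in the 3 lists (rows), placed by the distance of its summit downstream of the 5′-most marked start (horizontal axis, kb), with dotted lines at the representative start of each promoter and with point area and number giving the area percentile in the list. Nrg1 and Tbx15 have a first promoter without a WT point, Tcf7l2 and Zfp423 a second one, and Esrrg has no WT point.

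The genes with the most promoters had 4. Pde4d, a cyclic AMP phosphodiesterase whose long and short isoforms come from different promoters, had peaks at its first and last promoter in every list. The last, 786465 bp from the first, was at percentiles 80.0, 80.5 and 80.2, and the first at 7.86, 26.6 and 46.2. Of the 2 promoters between them, the second was marked in WT + 2HG alone at 5.78 and the third in CLPP-KO alone at 8.42. Septin9, a filament-forming GTPase, had its canonical promoter at 96.2, 95.3 and 95.2, a first promoter at 7.76, 38.2 and 41.2 and a second without a WT peak at 10.8 in WT + 2HG and 16.8 in CLPP-KO. Abr, a regulator of Rac, lacked a WT peak at its last promoter, a noncoding start in intron 16 that was at 2.98 in WT + 2HG and 34.6 in CLPP-KO. Pde4dip, a Golgi and centrosome anchor of phosphodiesterase, had 3 of its 4 promoters in all lists, and the third, 64551 bp from the first, at 13.3 in WT + 2HG and 24.2 in CLPP-KO. Speg, a kinase of striated muscle, was marked at its second promoter in all lists, at 81.4 in WT, and the other 3 lacked a WT peak. Aopep, an aminopeptidase, was the exception in direction, with the third promoter at 13.4 in WT and 24.8 in WT + 2HG without CLPP-KO and its last in WT alone at 3.65. Iqsec1, an exchange factor for Arf6, had a second promoter in WT + 2HG alone at 8.88.

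Some regulators of the adipose lineage were members. Of 51 adipogenic and thermogenic regulators, 5 were members, and the 4 of these with separate promoters, Tbx15, Esrrg, Tcf7l2 and Zfp423, each had at least 1 promoter that differed between lists, as did 40.1% of all members with separate promoters (237 of 591). Nothing particular to this list is read from 4 genes. Starts over 5000 bp apart were annotated for 29 of the 51. For this list and those below, members made up 3.02% of all coding genes and 6.43% of those with such starts. No result is read from the member counts of the lists, which were chosen with earlier results known. Tbx15, a T-box factor expressed in brown fat, had its upstream promoter at percentile 14.2 in WT + 2HG and 42.3 in CLPP-KO without WT, and its canonical promoter, 13324 bp downstream, at 41.2, 68.5 and 80.2 in WT, WT + 2HG and CLPP-KO. The upstream sequence printed above for Tbx15 lies within the CLPP-KO peak from 99147452 to 99148039. Esrrg, an orphan nuclear receptor of oxidative tissues, had no peak in WT. Its first promoter was at 5.22 and 40.8 in the treated lists, and its canonical promoter, 388798 bp downstream, at 12.7 in CLPP-KO alone. Tcf7l2, an effector of Wnt signalling, had its first promoter at 98.7, 98.7 and 99.0, and a second one in intron 4 at 21.1 in CLPP-KO alone. Zfp423, a zinc-finger factor of preadipocyte commitment, had its first promoter at 81.3, 95.01 and 98.7, and a noncoding start in intron 1 at 12.3 in WT + 2HG alone. In Tcf7l2 and Zfp423 the differing promoter was far smaller than the one marked throughout.

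Of 77 listed genes of lipid metabolism, 76 are coding genes on these chromosomes, and 59 of them have starts over 5000 bp apart. Of these genes 7 were members, and 5 of the 7 had every promoter in all lists, where 59.9% of all members did. Srebf1, whose promoters give different forms of the lipogenic factor SREBP1, was at percentiles 31.8, 21.1 and 41.3 at the first promoter and 20.9, 8.19 and 24.5 at the second, 10122 bp downstream. Acaca, which makes malonyl-CoA for fatty acid synthesis, was at 47.9, 64.5 and 62.3 at the first and 73.9, 63.9 and 55.7 at the second, and its first promoter lies beside another coding gene. The other 2 genes had a promoter in CLPP-KO alone. Mlxipl, the carbohydrate-responsive lipogenic factor ChREBP, had an upstream noncoding start at 4.46 in CLPP-KO and its canonical promoter at 13.9, 12.7 and 49.5. Lpin1, a phosphatidate phosphatase, had an upstream start, beside another coding gene, at 4.03 in CLPP-KO and its canonical promoter at 30.9, 30.2 and 42.9.

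Of 42 genes long known for alternative promoters, 16 were members, and 10 of the 16 had every promoter marked throughout. The list was made of genes with several promoters, so its share of members is no result. Gnas, an imprinted gene for a G protein subunit, had its second of 3 promoters, the canonical one, at percentile 2.04 in WT alone, and the third at 99.0, 99.4 and 99.3. Grb10, an imprinted adaptor of the insulin receptor, had a second promoter at 3.64 in CLPP-KO alone and its first at 46.5, 83.1 and 84.9. Dnmt3a, a DNA methyltransferase with a shorter form from an internal promoter, was at 97.8, 98.7 and 98.6 at the first promoter and at 16.98, 7.67 and 31.3 at the second, 84568 bp downstream in intron 6.

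Among chromatin-modifying enzymes, 11 of 82 coding genes on these chromosomes were members and 10 had separate promoters, 6 of them with every promoter in all lists. Starts over 5000 bp apart were annotated for 74 of the 82. Hdac5, a class IIa histone deacetylase, had a second promoter in intron 2 without a WT peak, at percentiles 33.2 and 31.3, and its first was at 76.3, 60.5 and 76.6. Chd8, a chromatin remodeller, had a second promoter at 23.2 in WT + 2HG and 9.56 in CLPP-KO. Kdm2a, a histone demethylase that uses 2-oxoglutarate, had a second promoter in intron 12 at 11.3 in CLPP-KO alone. The first promoters of Chd8 and Kdm2a were at 62.2 and 98.4 in WT.

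Of 89 genes of the cytoskeleton and the nuclear envelope, 85 have starts over 5000 bp apart and 21 were members. Over all coding genes with such starts 6.43% were members. Against 59.9% of all members, 14 of the 21 had every promoter in all lists. Lmna, which encodes lamins A and C, was one of these, at percentiles 93.9, 92.2 and 93.2 at its first promoter and 7.56, 24.5 and 20.1 at a second in intron 1, 9949 bp downstream. Syne1, whose nesprin proteins link the nuclear envelope to actin, had no WT peak. Its first promoter was at 22.6 and 31.5, and a promoter in intron 90 was at 2.50 and 11.1. Tmpo, a lamina-associated protein of the inner nuclear membrane, had an upstream noncoding start at 17.1 in WT + 2HG alone and its canonical promoter at 79.9, 95.5 and 95.5. Dst, a linker of filament systems, had the third promoter, 328759 bp from the first, at 30.5 in WT + 2HG and 34.7 in CLPP-KO without WT. Epb41l3, a membrane skeleton protein, had its upstream promoter at 28.6 and 42.2 without WT and its canonical promoter at 87.9, 95.3 and 92.8. Ablim1, an actin-binding LIM protein, had a second promoter at 16.5 in CLPP-KO alone. Sptbn1, a beta spectrin, was the reverse case, with a second promoter in intron 2 at 15.4 in WT alone and its first at 98.9, 98.8 and 99.3.

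Developmental transcription factors gave 24 members of 147, 22 with separate promoters, and 13 with every promoter in all lists. Starts over 5000 bp apart were annotated for 92 of the 147. Hoxd3 and Hoxd4 share their first promoter and its peak, which was at percentile 16.5 in WT + 2HG and 58.9 in CLPP-KO without WT, and they are not independent examples. Their second promoters lacked a WT peak as well, at 3.24 and 7.06 for Hoxd3 and 13.0 and 25.6 for Hoxd4 in WT + 2HG and CLPP-KO. Hoxc6 had its canonical promoter at 36.1 in WT + 2HG and 17.6 in CLPP-KO, whose peak overlaps a WT peak outside the window, and Hoxc5 an upstream noncoding start, beside another coding gene, at 23.5 in CLPP-KO alone. Tfap2a, a factor of the neural crest, had an upstream promoter at 6.69 in WT + 2HG alone, and Nfic a noncoding start in exon 8 at 5.46 in WT + 2HG alone. The first promoter of Nfic was at 92.3, 96.0 and 94.8.

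Receptors and signalling enzymes gave 26 members of 123, and 23 of these had 50 promoters, of which 9 lacked a WT peak and were marked in WT + 2HG and 14 in CLPP-KO. Over all 1226 member promoters these numbers were 185 (15.1%) and 215 (17.5%). Starts over 5000 bp apart were annotated for 108 of the 123 genes. Nfatc2, a calcium-regulated transcription factor, had no WT peak, and its upstream promoter was at percentile 23.8 in WT + 2HG and 44.3 in CLPP-KO. Pde1c, a calmodulin-dependent phosphodiesterase, and Prkcz, an atypical protein kinase C, also had none in WT. The second promoter of Pde1c was at 6.81 and 33.0, and the first of Prkcz at 14.6 and 15.5. Rgs3, a brake on G protein signalling, had 3 promoters and none marked in WT, with the second at 23.8 and 29.3. Dgkz, a diacylglycerol kinase, had its upstream promoter at 30.3 and 28.4 without WT, and its canonical one at 66.4, 65.8 and 71.5. Wnt10b, a Wnt ligand that holds back adipogenesis, had its upstream promoter at 9.60 and 14.7 without WT, and its canonical one at 16.4, 23.1 and 25.8. Ptprd, a receptor phosphatase, had an upstream noncoding start 1761981 bp from its canonical one, at 16.0 and 4.12 without WT.

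The promoter with the largest area was mostly the same in every list. Of the 559 genes with a marked promoter in each list, 458 had the same strongest one in all 3 (81.9%, 95% Wilson interval 78.5 to 84.9%), the areas of the peaks of a promoter being added. Among the 354 genes with every promoter marked throughout this held for 271 (76.6%, 71.9 to 80.7%). The strongest promoter differed between WT and WT + 2HG in 57 of them, between WT and CLPP-KO in 56 and between the treated lists in 53. It was the 5′-most in 195 of the 354 in WT (55.1%, 49.9 to 60.2%), in 202 in WT + 2HG and in 204 in CLPP-KO.

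The ratio of the areas of 2 promoters of a gene is taken within a list, so a constant factor between lists cancels out. Differences between lists that are not such a factor, as in depth, can still change the ratio and were not tested. In 93 genes both of the strongest promoters were at or above the median area of each list. Their log2 ratio of the downstream over the upstream area had medians of −0.12, −0.16 and −0.08 in WT, WT + 2HG and CLPP-KO, and its change from WT medians of −0.06 (WT + 2HG) and −0.07 (CLPP-KO). The quartiles of the change were −0.54 and 0.30 in WT + 2HG and −0.41 and 0.32 in CLPP-KO. The balance of promoters in these genes thus had no common direction, though single genes moved. Rgma, a bone morphogenetic protein co-receptor, had log2 ratios of 1.11, −0.60 and −1.05, the widest change in both comparisons. Its upstream promoter was at percentiles 51.3, 67.3 and 85.7, and its downstream one, 15767 bp away, at 83.9, 50.9 and 54.6, so the larger of the promoters differed between WT and the treated lists. Zeb2, a repressor of epithelial genes, had ratios of 0.15, 1.53 and 1.56, with the downstream promoter the larger one in every list. Gse1 had ratios of 1.17, −0.41 and 0.33 between its second promoter and the third, and Pafah1b2, a subunit of an acetylhydrolase of platelet-activating factor, −0.85, −0.31 and 0.38. The upstream promoter of Pafah1b2 overlaps the window of another coding gene. No error can be given for these ratios, which rest on 1 area per promoter and list.

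Promoters missing from a list, whether WT or treated, were poorer in CpG than those marked in all lists. Over 500 bp either side of the representative start, the ratio of observed to expected CpG had a median of 0.74 (quartiles 0.61 and 0.85) for the 944 promoters marked in all lists and 0.55 (0.42 and 0.69) for the 258 without a WT peak. The median number of CpG was 70 and 45.5, and the median GC content 62.7 and 58.3%. A GC content of at least 50% with a CpG ratio of at least 0.6, as in CpG islands, was found at 76.8% of the former (95% Wilson interval 74.0 to 79.4%) and 37.2% of the latter (31.5 to 43.3%). The share was 45.8% for promoters in both treated lists, 37.0% for CLPP-KO alone and 9.30% for WT + 2HG alone (4 of 43, 3.68 to 21.6%). The 24 promoters with a WT peak and missing from a treated list were low as well. Their median CpG ratio was 0.51 and their median GC content 54.3%, and 29.2% passed these limits (7 of 24, 14.9 to 49.2%). A low ratio was thus not particular to promoters without a WT peak. The promoters of other coding genes had a CpG ratio of 0.78 where marked in all lists and 0.62 where they lacked a WT peak, so a lower ratio was found outside the member genes too. The 1079 groups of starts of the member genes that lay over 5000 bp from any marked start had a median CpG ratio of 0.25 and 14 CpG, and 0.371% of them passed the CpG island limits.

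**Figure D4:**
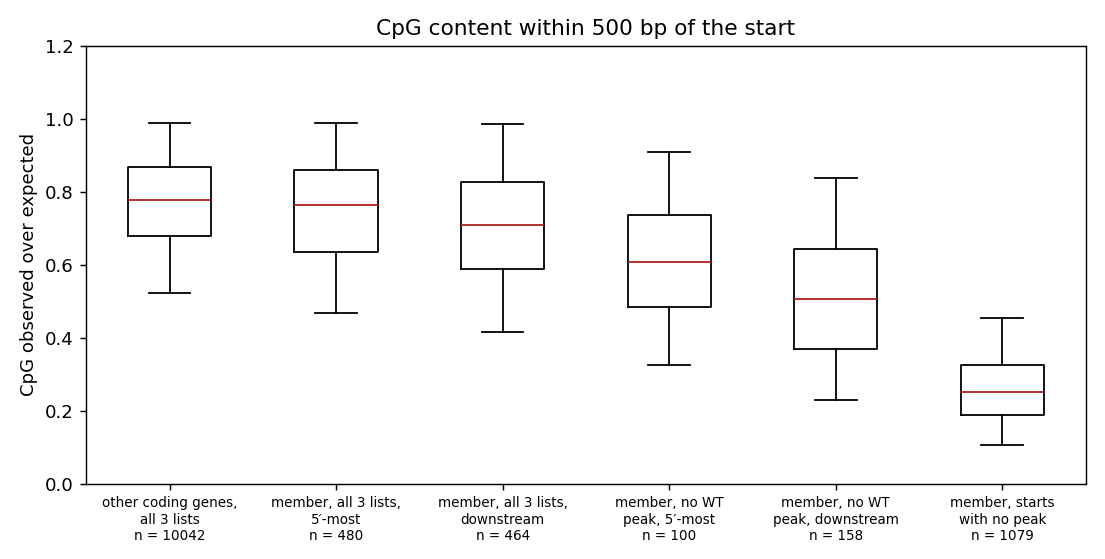
Ratio of observed to expected CpG within 500 bp either side of the start (vertical axis) for the promoters of other coding genes in all 3 lists and for 5 classes of starts of the member genes, with boxes from the lower to the upper quartile, a red line at the median and whiskers at the 5th and 95th percentile. The medians run from 0.78 for other coding genes through 0.76, 0.71, 0.61 and 0.51 for the marked classes of member promoters to 0.25 for starts without a peak.

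The difference was also found within genes. In the 167 genes that pair a promoter marked in all lists with one that lacks a WT peak, the latter had the lower CpG ratio in 129 (77.2%, 95% Wilson interval 70.3 to 82.9%), at medians of 0.55 and 0.77. Where both of 2 promoters were marked in all lists, the downstream one was the lower in 196 of 339 (57.8%, 52.5 to 63.0%). In Tbx15 the promoter without a WT peak had a ratio of 0.36 and 26 CpG and its partner 0.74 and 72. In Trio, an exchange factor with several catalytic domains, these were 0.33 and 21 against 0.93 and 125. Its second promoter, in intron 34, was at percentile 7.43 in CLPP-KO alone, where the peak lay 761 bp from a WT peak, and its first was at 96.1, 97.9 and 98.6. The CpG ratio and number were, in Nrg1, 0.61 and 54 against 0.88 and 106, and in Mlxipl 0.49 and 47 against 0.78 and 63. Tbx15, Trio, Nrg1 and Mlxipl are all among the 129, and no pair that goes the other way is shown. Esrrg, without a WT peak at either promoter, is not one of the 167 pairs, and its ratios were 0.76 and 0.73.

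Short core promoter motifs were counted from 250 bases before the start to 50 after it, on both strands. The GC box core GGGCGG was present at 74.6% of member promoters marked in all lists and 53.9% of those without a WT peak, with 72.4% over all coding promoters and 8.90% at the starts of member genes without a peak. The TATA box core TATAAA was present at 2.97 and 5.81%, with 3.94% over all coding promoters and 14.9% at the unmarked starts. CCAAT was present at 28.0 and 29.8%, with 30.7% over all coding promoters. The 24 promoters with a WT peak and missing from a treated list had GGGCGG at 50.0%, TATAAA at 12.5% and CCAAT at 29.2%. GGGCGG contains a CpG and so is not independent of the CpG content, and a match of letters does not show that a factor binds.

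**Figure D5:**
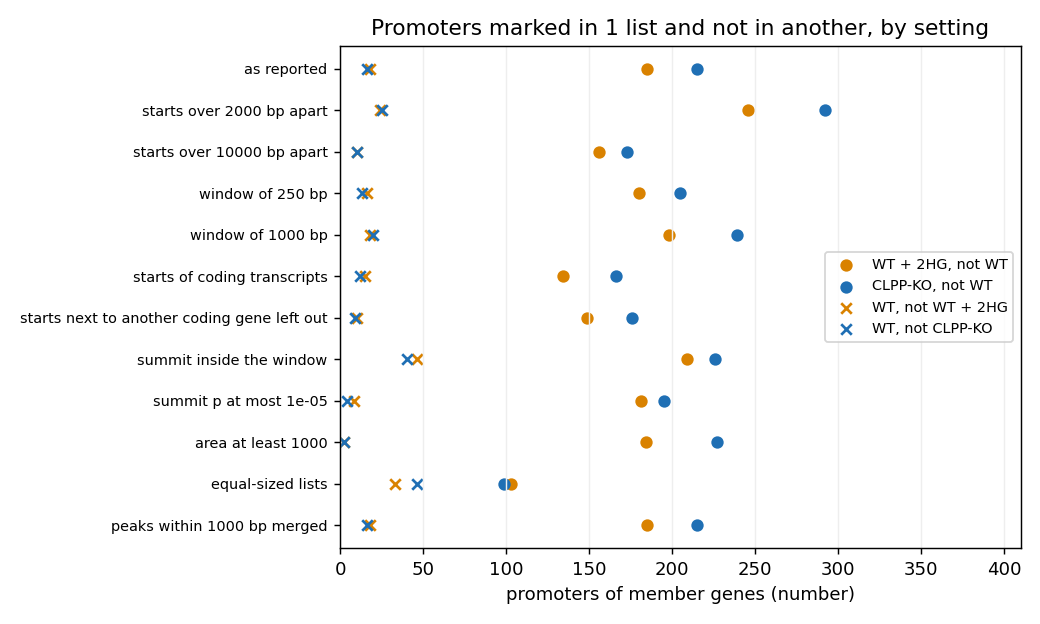
Number of promoters of the member genes (horizontal axis) marked in a treated list and not in WT (circles) or in WT and not in the treated list (crosses), under the reported setting and 11 others (rows). Circles lie above crosses in every row, and they come closest with the equal-sized lists, at 103 and 99 against 33 and 46.

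Some genes stood at the limits of the definition. In the 31 members whose marked starts formed 1 chain, among them Gata2, Gata6, Wnt5a, Akt1, Brd2 and Per1, separate peaks marked starts over 5000 bp apart with further marked starts in between, and they enter none of the promoter counts. In 6 other genes separate promoters were marked, but never by separate peaks in the same list, so they are not members. Cald1, the actin-binding protein caldesmon, had its first promoter marked in WT and WT + 2HG at percentiles of at most 2.55 and its second in CLPP-KO alone at 18.7. Map4k1 had its first promoter in WT alone at 15.9 and its second in CLPP-KO alone at 12.6, and 1110004F10Rik its first in WT alone at 4.38 and its second in both treated lists at up to 24.6. In Slc35f3, Sgcd and Fgf12 each of 2 promoters was marked in a different treated list, at percentiles of at most 5.56. The largest of the peaks in these 6 genes was at 24.6.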

How the data were processed

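H3K4me3 ChIP–seq was performed on mBA cells in 3 conditions with 4 samples and 1 input apiece. The authors trimmed reads with fastp, mapped them to GRCm39 with BWA and ran Genrich once per condition, combining its 4 replicates. The submitters' processing notes give fastp 0.23.4, BWA 0.7.17, deepTools 3.5.4 and Genrich 0.6.1. The deposited lists give each peak a signal, its area under the curve, which is not scaled between lists. They also give the authors' −log10 p-value at the summit and the summit's offset. The lists hold no read counts, so the depth of a sample could not be measured from them. The study's reporting summary states a single nominal depth, with no value per sample.

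Transcript starts and exons came from GENCODE M39 on GRCm39, and sequences from the same assembly. A start was marked when a peak overlapped its window of 500 bp either side by at least 1 bp. Marked starts within 5000 bp of the next were joined into 1 promoter. The area of a promoter is the sum over its peaks, and its percentile that of its largest peak. Shares have 95% Wilson intervals, and no test was made, since each condition has 1 list. The code was tested on simulated data, where 400 of 400 planted calls were recovered, and overlaps were compared with bedtools (2.31.1) and were equal in all 3 lists. Figures were drawn with matplotlib 3.10.9 in Python 3.11.15.

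The members, gene lists and named genes were chosen with earlier results of these data known. A gene list and 1 further gene are not reported here. Named were the members of the other lists with a promoter that differed between lists (at most 8 a list, largest percentile first), for each of 4 patterns the 4 genes with the largest such peak, the genes with the most promoters, and the 3 genes with the widest change of area ratio in each comparison. All 7 genes with 4 promoters were named where the rule asked for 3. Lmna, Srebf1, Acaca, Dnmt3a and Fgfr2 and the genes at the limits of the definition were named after their values were seen. There were 11 alternatives: other distances and windows, other sets of starts, and other filters or joining of peaks.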

Additional observations from a re-analysis of the deposited data

Results flagged for a closer look

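Chromosome X lies outside the rule, and its genes were not used in the comparisons. The peak calling commands in the study's reporting summary list this chromosome among those left out, yet the lists hold peaks on it. Of 982 coding genes on it, the rest of the rule was met by 3 in the WT list, by 6 with 2HG and by 5 in the knockout (0.31, 0.61 and 0.51%). On chromosomes 1 to 19 the rule was met by 404, 539 and 563 of 20621 coding genes. No direction is read from so few genes on chromosome X. Bcor, Dlg3 and Tsc22d3 met the rest of the rule in every list, Septin6 and Elf4 in both treated lists, and Slc25a53 in WT + 2HG alone. With 1 list per condition the difference was not tested.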

How the results depend on the processing

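No paired analysis was possible because each condition has 1 peak list made from its 4 replicates, and no replicate could be left out for the same reason. Of 99 values under the 11 alternatives, 80 stayed within 1.5 times the reported count or, for shares, inside the 95% interval. With equal-sized lists 103 promoters of WT + 2HG and 99 of CLPP-KO lacked a WT peak, and those marked in WT and missing from the treated list 33 and 46. Leaving out starts next to another coding gene gave 407 genes, 811 promoters, and 10 and 9 promoters missing from WT + 2HG and CLPP-KO. These numbers were 46 and 40 with the summit required inside the window, 8 and 4 at a summit p of at most 1e-05, 2 and 2 at an area of at least 1000, and 10 and 10 at over 10000 bp. At over 2000 bp 25 promoters were missing from CLPP-KO. The share of CLPP-KO promoters without a WT peak also marked in WT + 2HG was 75.9% at the stricter p, and the share of genes with the same strongest promoter 74.9% with the summit inside the window. In each alternative more promoters were marked in a treated list without WT than the reverse. Apart from the fewer peaks or starts that an alternative leaves, the cause was not tested. Peak lists without read counts or replicates limit these comparisons to presence and rank of peaks, and a peak just under the authors' threshold counts as absent.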
